A study of Mus musculus with 16 samples.

Results

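The data described here are the levels of 42 genes of the cell cycle in single cells of mouse dorsal root ganglia (DRG), out of 49671 genes counted. The members were chosen by name, as genes of S phase, mitosis and the step from G1 into S phase with its inhibitors, and all 42 were found by Ensembl identifier and had UMIs at both ages. They were read by library, age and cell class, in wells of a plate holding at least 10000 UMIs (unique molecular identifiers, the count of captured mRNA molecules). A well was put in the connective tissue class when the collagen genes *Col1a1* and *Col1a2* together reached 2000 CPM (counts per 1000000 UMIs of the well). It was put in the glial-transcript class when *Apoe* and *Fabp7* together reached 200 CPM, and in the proprioceptor class when *Etv1* reached 300 CPM with *Apoe* and *Fabp7* below 200 CPM.

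A dividing cell passes from G1 through S phase, in which its DNA is copied, into mitosis. D cyclins with Cdk4 and Cdk6 start the passage by phosphorylating pocket proteins of the retinoblastoma family, E2F factors then turn on genes of DNA replication, and B cyclins with Cdk1 drive mitosis. Inhibitors such as p21, p27 and p57 hold the kinases back. Sensory neurons of the ganglion leave the cell cycle early in development and do not divide again, whereas glia and connective tissue around them go on dividing in the embryo.

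The samples were 10 CEL-Seq2 libraries of embryonic day e15.5 (960 wells) and 6 of postnatal day p1 (576 wells), with 96 wells per library. The e15.5 cells came from PvtdTom embryos, in which a bacterial artificial chromosome places tdTomato under the parvalbumin promoter, and tdTomato-positive cells were sorted by fluorescence. The p1 cells came from Trpv1Cre; PvFlp; Ai65 mice, in which tdTomato needs both recombinases, and from PvCre; Ai14 mice, in which it needs Cre alone. The Trpv1Cre line was Trpv1Cre-Basbaum for some of these cells and Trpv1Cre-Hoon for others. The p1 cells were picked by hand according to the study's methods (the labels name fluorescence sorting for them too). Cells of both ages were chosen for tdTomato and came from thoracic and lumbar DRG, but the labels do not say which line or level a single library holds. The study's methods also give a longer collagenase step at p1 than at e15.5. Age, mouse line, way of isolation and length of digestion differed together and cannot be told apart. Nothing in the labels says that libraries were separate animals, so p-values measure the spread between libraries, which may be technical.

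Of the e15.5 wells 871 reached 10000 UMIs, and 342 fell in the connective tissue class, 83 in the glial-transcript class and 280 in the proprioceptor class. A further 51 met more than 1 definition (49 of them connective tissue and glial transcripts) and 115 met none, and these were left out of the comparisons. At p1 369 wells reached the limit, of which 50 were glial-transcript and 303 proprioceptor wells, 8 met more than 1 definition, 8 met none, and none was connective tissue alone. The lowest collagen sum inside that limit at e15.5 was 2153 CPM and the highest outside 1929 CPM, with 9 wells within 20% of it. For glial transcripts these values were 201 and 181 CPM and for *Etv1* 303 and 293 CPM. Connective tissue wells were unevenly spread, with 23 to 75 in libraries 1 to 8 and 1 and 4 in libraries 9 and 10. UMIs were summed per library and class where there were at least 5 wells, which gave 8 connective tissue, 9 glial-transcript and 10 proprioceptor sums at e15.5 and 4 and 6 at p1. The sums held 134145 to 7348896 UMIs, the lowest in p1 library 3, in which the median well held 1409 UMIs.

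The classes were checked against markers outside their definitions. A list of 6 connective tissue genes (*Col3a1*, *Pdgfra*, *Dcn*, *Lum*, *Twist1*, *Prrx1*) summed to between 6273 and 9667 CPM over the 8 connective tissue sums and to between 3.95 and 78.2 CPM in e15.5 proprioceptor sums. A list of 5 sensory neuron genes (*Avil*, *Isl1*, *Tubb3*, *Prph*, *Snap25*) ran the other way, at 133 to 385 CPM against 5186 to 6095 CPM. Summed per library, the wells with glial transcripts held both glial and neuronal RNA. Their 3 further glial genes (*Sox10*, *Erbb3*, *Foxd3*) summed to 116 to 839 CPM at e15.5, against 0.949 to 5.22 CPM in proprioceptor sums, while their neuron genes stood at 3047 to 5505 CPM. The 6 connective tissue genes stood at 14.2 to 377 CPM (median 113) in these e15.5 sums, above the 78.2 CPM of the highest proprioceptor sum in 5 of 9 libraries, and at 13.97 to 31.2 CPM in those of p1. At p1 the neuron genes were at 3678 to 4196 CPM in glial-transcript and 3647 to 4675 CPM in proprioceptor sums, and the glial genes at 30.7 to 77.4 and 3.10 to 11.2 CPM. Single glial-transcript wells varied more than the sums. At e15.5 their neuron genes ran from 85.7 to 7875 CPM and the 3 glial genes from 0 to 1342 CPM. At p1 these ran from 1923 to 7089 CPM and from 0 to 250 CPM. Not every well of the class thus held both kinds of RNA in quantity. Whether such a well held 1 cell or several was not tested. The connective tissue wells carried a label of proprioceptive sensory neurons and few neuron transcripts. In them 5 red cell genes summed to 3582 and 6991 CPM in libraries 6 and 7 and to 6.67 to 257 CPM in the other 6, and 3 endothelial genes to 401 CPM in library 4 and to 4.15 to 17.5 CPM in the others. The part of these cells in the results was not tested.

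The 42 genes were read in 5 roles: replication licensing and helicase (9 genes), DNA synthesis and nucleotides (4), mitosis (18), G1 cyclins and kinases (8) and CDK inhibitors (3). The promoters shown here are those of the 2 mitosis genes and the 2 replication or synthesis genes with the highest CPM in e15.5 connective tissue wells, and of the D cyclin and the inhibitor with the highest CPM among those with an entry. They are RefSeq promoters of build GRCm38.p6, 250 bases before to 50 after the transcript start, 5′ to 3′ on the gene's strand, and 33 of the 42 members had an entry. Capitals mark matches on either strand to an E2F-type site (TTTCCCGC or TTTGGCGC), to the cell cycle gene homology region or CHR (TTTGAA or TTCGAA), and to CCAAT.
Top2a (chr11:99024140-99024439, minus strand): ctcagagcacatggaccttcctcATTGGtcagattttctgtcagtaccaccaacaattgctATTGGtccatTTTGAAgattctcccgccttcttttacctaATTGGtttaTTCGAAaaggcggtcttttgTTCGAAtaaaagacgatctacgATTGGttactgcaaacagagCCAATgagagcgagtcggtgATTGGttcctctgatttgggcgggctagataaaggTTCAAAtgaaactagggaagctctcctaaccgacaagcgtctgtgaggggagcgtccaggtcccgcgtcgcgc
Mki67 (chr7:135716330-135716629, minus strand): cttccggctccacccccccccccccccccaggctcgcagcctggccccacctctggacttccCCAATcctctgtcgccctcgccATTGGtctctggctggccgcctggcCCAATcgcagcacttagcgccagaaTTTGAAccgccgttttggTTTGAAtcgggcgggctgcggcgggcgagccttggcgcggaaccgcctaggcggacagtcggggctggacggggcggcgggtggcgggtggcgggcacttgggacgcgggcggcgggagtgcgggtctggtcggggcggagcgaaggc
Pcna (chr2:132253131-132253430, minus strand): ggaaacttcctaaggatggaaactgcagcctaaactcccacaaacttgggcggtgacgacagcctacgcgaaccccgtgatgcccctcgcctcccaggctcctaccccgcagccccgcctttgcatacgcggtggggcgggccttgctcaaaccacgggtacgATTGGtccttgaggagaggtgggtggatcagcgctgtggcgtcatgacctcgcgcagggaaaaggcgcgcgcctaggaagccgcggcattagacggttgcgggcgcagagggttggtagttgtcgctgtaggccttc
Mcm6 (chr1:128359656-128359955, minus strand): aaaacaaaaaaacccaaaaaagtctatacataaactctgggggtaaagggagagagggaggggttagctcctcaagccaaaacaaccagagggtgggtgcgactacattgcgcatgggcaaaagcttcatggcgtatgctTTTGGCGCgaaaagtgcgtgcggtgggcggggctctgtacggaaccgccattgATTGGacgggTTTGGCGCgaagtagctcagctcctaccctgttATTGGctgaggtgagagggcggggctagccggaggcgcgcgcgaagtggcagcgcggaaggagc
Ccnd3 (chr17:47504801-47505100, plus strand): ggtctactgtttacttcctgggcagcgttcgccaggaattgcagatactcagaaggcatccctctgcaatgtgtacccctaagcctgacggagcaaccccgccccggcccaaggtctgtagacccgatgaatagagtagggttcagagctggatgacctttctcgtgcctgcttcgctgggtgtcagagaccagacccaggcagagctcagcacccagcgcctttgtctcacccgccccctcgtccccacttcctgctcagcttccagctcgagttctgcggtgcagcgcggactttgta
Cdkn1a (chr17:29090729-29091028, plus strand): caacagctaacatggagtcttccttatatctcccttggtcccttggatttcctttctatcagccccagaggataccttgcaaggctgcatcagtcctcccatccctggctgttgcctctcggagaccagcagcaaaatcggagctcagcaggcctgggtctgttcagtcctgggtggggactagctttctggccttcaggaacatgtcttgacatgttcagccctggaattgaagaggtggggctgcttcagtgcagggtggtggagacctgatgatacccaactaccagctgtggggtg

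The *Top2a* promoter held 4 CHR and 6 CCAAT matches and that of *Mki67* held 2 and 3, with no E2F-type match in either. The *Mcm6* promoter held 2 E2F-type and 2 CCAAT matches and no CHR, and *Pcna* held 1 CCAAT match alone. None of the letters searched was in the *Ccnd3* or *Cdkn1a* window, and each of these genes has 2 entries, of which 1 is shown. Over all members with an entry, E2F-type letters were in the promoters of 6 of 7 replication licensing genes (85.7%) and in 1 other, that of the G1 kinase gene *Cdk2*, against 1.63% of 27025 promoters of all genes. CHR letters were in 11 of 15 mitosis promoters (73.3%) against 19.4% of all, and each of those 11 also held CCAAT, a pair found in 7.70% of all promoters. No mitosis promoter held E2F-type letters and 2 of 7 licensing promoters held CHR letters. The 4 synthesis promoters held neither, and 3 of them held CCAAT, which was in 37.9% of all promoters. Of 19 promoters of a list of other mitosis genes 16 held CHR letters, and of 13 of other replication genes 2 held E2F-type letters. A match describes letters in a window and does not show that a factor binds there.

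**Figure D1:**
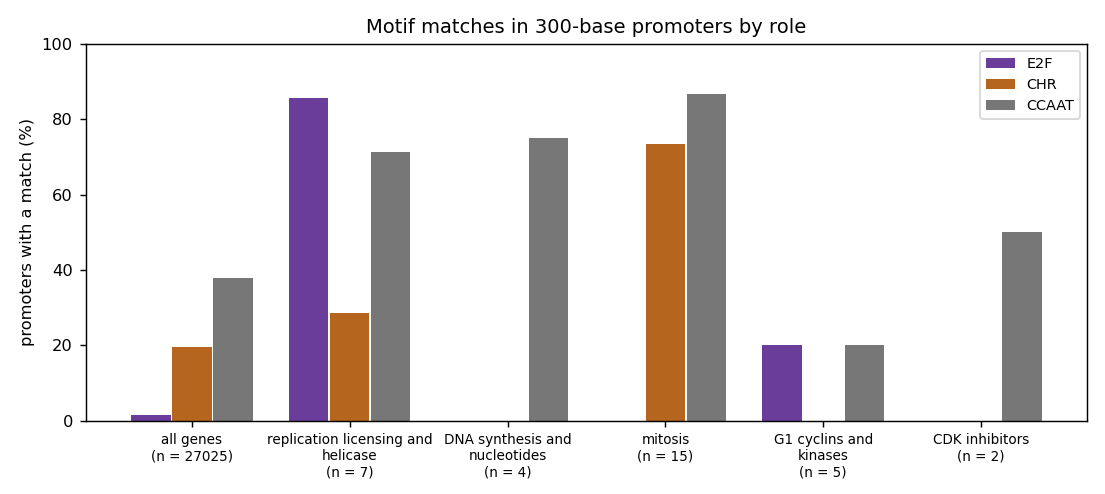
Share of promoters (300 bases, in percent) with at least 1 match to E2F-type, CHR or CCAAT letters, for all genes and for the members of each role, with the number of promoters under each group. E2F-type matches reach 85.7% in replication licensing genes and CHR matches 73.3% in mitosis genes, against 1.63% and 19.4% of all genes.

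At e15.5 the question was which cell classes carried transcripts of dividing cells. Summed over the 18 mitosis genes, connective tissue libraries held 1078 to 2309 CPM (median 1730), proprioceptor libraries 19.7 to 94.2 CPM (median 26.4) and glial-transcript libraries 42.5 to 1431 CPM (median 153). Every connective tissue library was above every proprioceptor library, while the glial-transcript libraries ran from proprioceptor levels up into the range of connective tissue. The 9 replication licensing genes summed to 354 to 955 CPM in connective tissue, 62.9 to 244 in glial-transcript and 47.5 to 65.8 in proprioceptor libraries. For the 8 G1 cyclins and kinases the ranges were 1873 to 2405, 249.4 to 961 and 110 to 147 CPM.

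**Figure D2:**
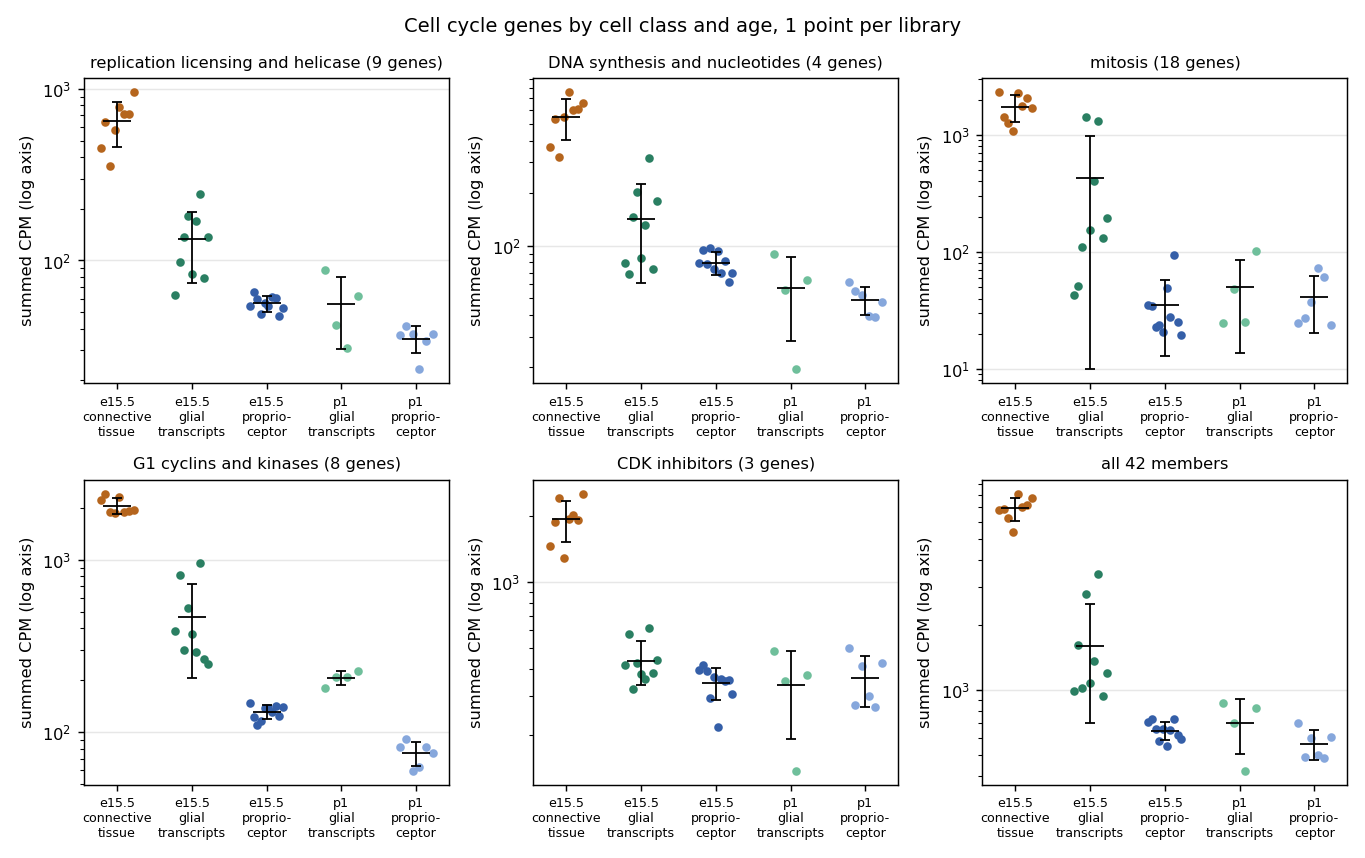
Summed CPM of the members of each role and of all 42, on log axes, with 1 point per library in each class and age and the mean ± SD as black bars (a lower end below 10 CPM is drawn at 10). Connective tissue libraries (1078 to 2309 CPM for mitosis) stand above all proprioceptor libraries, and glial-transcript libraries at e15.5 spread over the gap between them.

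Against proprioceptor wells of the same age, 41 of the 42 members were higher in connective tissue wells and 1, *Cdkn1a*, was lower, where 38.8% of all 13992 genes tested were higher and 38.9% lower (edgeR quasi-likelihood test, Benjamini-Hochberg adjusted p under 0.05). The members' median log2 fold change was 5.01, against -0.00 over all genes. All 42 calls held in every alternative that tested them. In 39 members every connective tissue library lay above every proprioceptor library, which held for 21.5% of all genes tested, the exceptions being *Gmnn*, *Cdkn1a* and *Cdkn1b*.

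All 18 mitosis genes were higher in connective tissue wells, by 3.46 (*Aurka*, a spindle pole kinase) to 6.96 (*Nusap1*, a microtubule-bundling protein) on the log2 scale, with a median of 5.70. *Nusap1* ran from 26 to 62.9 CPM (median 38.8) in connective tissue and from 0 to 1.5 CPM (median 0) in proprioceptor libraries, a log2 fold change of 6.96 ± 0.64 (SE, edgeR adjusted p = 3.9e-13). *Cdk1*, the kinase that drives entry into mitosis, ran from 68.3 to 153 CPM (median 123) against 0 to 4.80 CPM (median 0.679), a log2 fold change of 6.53 ± 0.45 (edgeR adjusted p = 3.4e-16). Neither gene's ranges overlapped. *Mki67*, whose protein coats mitotic chromosomes, stood at 153 to 386 CPM against 0 to 17.3 CPM, and *Top2a*, the topoisomerase that untangles chromosomes, at 231 to 618 CPM against 1.5 to 18 CPM. The cyclins *Ccna2*, *Ccnb1* and *Ccnb2*, partners of the mitotic kinases, differed by 5.42, 6.37 and 5.21 on the log2 scale. The checkpoint kinases *Bub1* and *Bub1b* differed by 6.01 and 4.02, and the kinases *Aurkb* and *Plk1* by 6.04 and 4.76. The kinetochore genes *Cenpe* and *Cenpf*, the spindle genes *Kif11* and *Tpx2*, *Birc5* (survivin) and *Ube2c*, which passes ubiquitin to mitotic cyclins, lay between 4.93 and 5.98.

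The replication genes were higher in connective tissue too, and their proprioceptor levels were not all near 0. All 9 licensing and helicase genes and all 4 synthesis genes passed the test, with median log2 fold changes of 4.32 and 3.28. *Mcm3*, a subunit of the replicative helicase, stood at 41.4 to 130 CPM (median 74.9) in connective tissue and at 0.407 to 1.68 CPM (median 0.936) in proprioceptor libraries, a log2 fold change of 6.46 ± 0.32 (edgeR adjusted p = 8.5e-21). *Cdc6*, which loads that helicase, stood at 3.76 to 28.0 CPM (median 19.8) against 0 to 1.85 CPM (median 0.104), a log2 fold change of 5.62 ± 0.47 (edgeR adjusted p = 2.9e-14). *Mcm6*, another subunit of the same ring, was at 102 to 259 CPM against 20.3 to 33.4 CPM, a log2 fold change of 2.66 ± 0.16 (edgeR adjusted p = 5.6e-18). Between these, *Mcm2*, *Mcm4*, *Mcm5* and *Mcm7* differed by 3.62 to 4.73 on the log2 scale, so within the helicase the difference ran from 2.66 to 6.46. Its loader *Cdt1* differed by 4.62 and *Gmnn*, the inhibitor of *Cdt1*, by 1.64, the smallest value of the replication genes.

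Among the synthesis genes *Rrm2*, the subunit of ribonucleotide reductase made in S phase, ran from 42.7 to 131 CPM (median 59.6) against 2.36 to 8.54 CPM (median 3.66), a log2 fold change of 4.34 ± 0.29 (edgeR adjusted p = 1.6e-16). *Tyms*, thymidylate synthase, ran from 22.6 to 77.9 CPM (median 48.9) against 0.814 to 4.73 CPM (median 3.28), a log2 fold change of 3.91 ± 0.27 (edgeR adjusted p = 4.3e-16). Both sets of libraries were apart. *Rrm1*, the other subunit of the reductase, and *Pcna*, the sliding clamp of the polymerases, differed less, by 2.65 and 2.64 on the log2 scale. *Pcna* stood at 199 to 398 CPM against 43.9 to 66.5 CPM. A pseudogene of *Pcna* with 99.2% identity, *Pcna-ps2*, took 47.6 CPM in connective tissue and 5.09 CPM in proprioceptor wells, so the division of reads between the copies is uncertain.

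**Figure D3:**
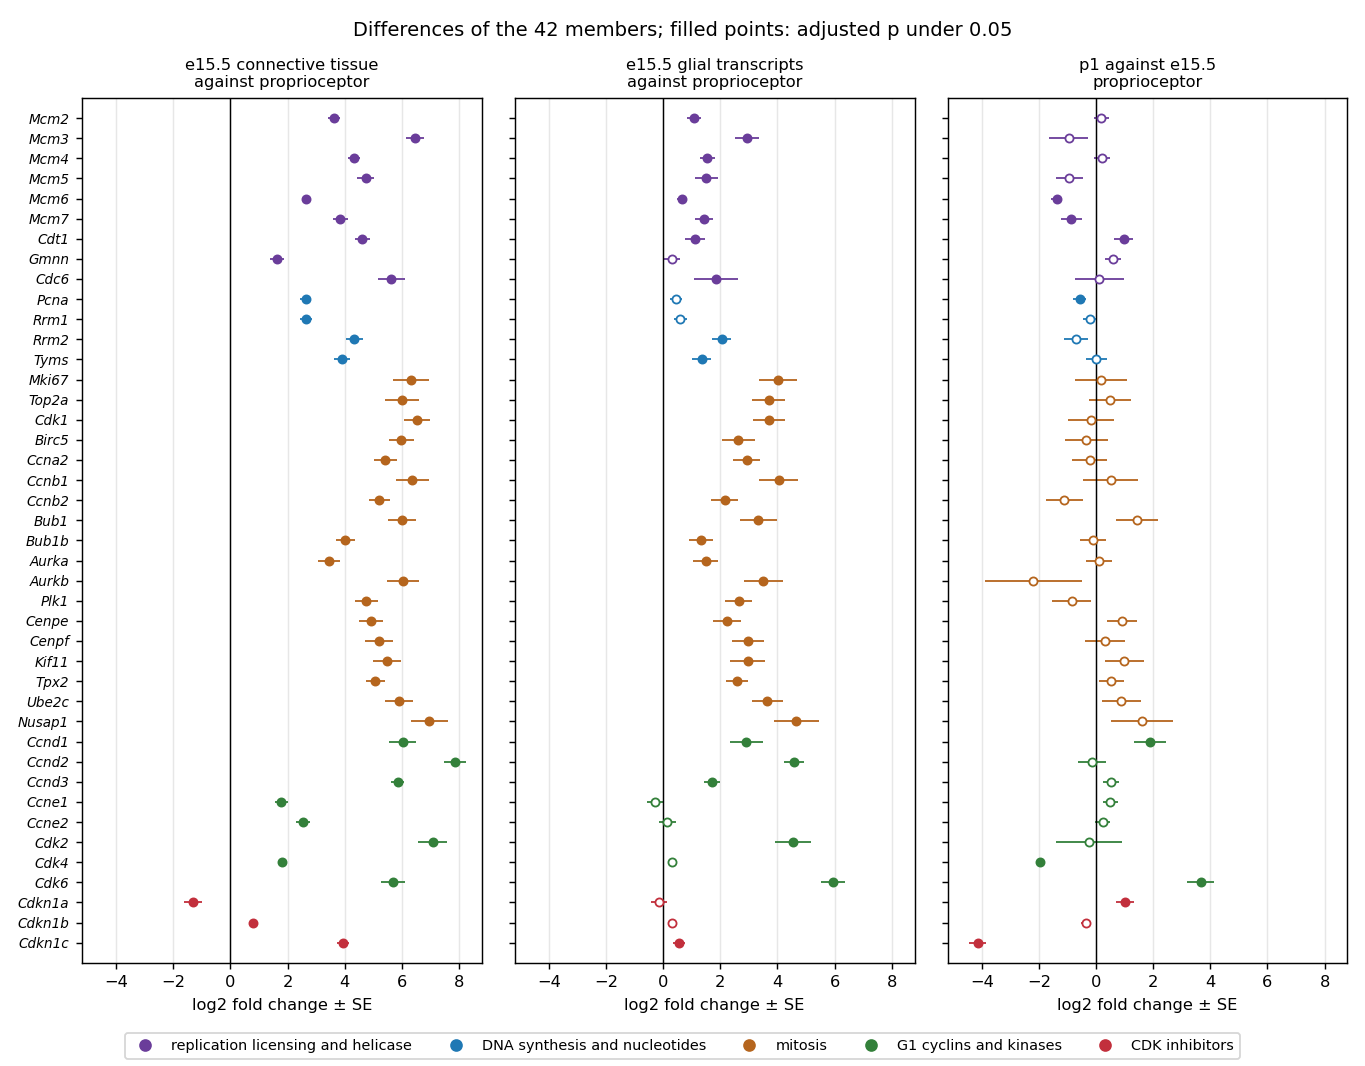
Log2 fold change ± SE of each member, colored by role, in 3 comparisons, with filled points for an adjusted p under 0.05 (edgeR). All but *Cdkn1a* lie right of 0 for connective tissue, the glial-transcript values are smaller for most genes, and at p1 against e15.5 there are 9 filled points, none of them a mitosis gene.

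The largest difference of any member was in a G1 gene, the D cyclin *Ccnd2*. All 8 cyclins and kinases were higher in connective tissue wells, with a median log2 fold change of 5.78. *Ccnd2* stood at 740 to 1340 CPM (median 1001) in connective tissue and at 1.22 to 16.8 CPM (median 3.42) in proprioceptor libraries, a log2 fold change of 7.86 ± 0.37 (edgeR adjusted p = 5.0e-21). *Ccnd1* stood at 93.7 to 262 CPM (median 130) against 0 to 8.44 CPM (median 0.938) and *Ccnd3* at 259 to 450 CPM (median 341) against 2.85 to 11.3 CPM (median 5.73), with log2 fold changes of 6.04 ± 0.47 and 5.86 ± 0.23. Each D cyclin was thus present in every connective tissue library at a level that no proprioceptor library reached. *Cdk2*, the partner of E cyclins, ran from 28.9 to 68.1 CPM (median 53.2) against 0 to 3.01 CPM (median 0.0984), a log2 fold change of 7.08 ± 0.50 (edgeR adjusted p = 2.7e-16). *Cdk6* ran from 45.4 to 108 CPM (median 66.0) against 0.394 to 4.74 CPM (median 1.29) and *Cdk4*, the other partner of D cyclins, from 257 to 378 CPM (median 315) against 73.0 to 112 CPM (median 93.4). Their log2 fold changes were 5.71 ± 0.42 and 1.82 ± 0.11. *Cdk4* and the E cyclins differed least of the 8, with *Ccne1* at 20.1 to 62.9 CPM (median 45.2) against 4.62 to 16.3 CPM (median 12.6) and *Ccne2* at 20.1 to 92.6 CPM (median 50.8) against 7.29 to 15.4 CPM (median 8.22), or 1.77 ± 0.23 and 2.53 ± 0.24 on the log2 scale.

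The 3 inhibitors went separate ways. *Cdkn1c*, which encodes p57, stood at 1118 to 2438 CPM (median 1812) in connective tissue and at 96.3 to 148 CPM (median 119) in proprioceptor libraries, a log2 fold change of 3.95 ± 0.21 (edgeR adjusted p = 2.6e-19). *Cdkn1a*, which encodes p21, was the lower one, at 24.5 to 199 CPM (median 57.2) against 59.4 to 244 CPM (median 207), a log2 fold change of -1.31 ± 0.30 (edgeR adjusted p = 0.00018). Its ranges overlapped, with connective tissue libraries 1, 4 and 5 (199, 120 and 92.6 CPM) above the lowest proprioceptor library. *Cdkn1b*, which encodes p27, was at 36.9 to 54.8 CPM (median 46.9) against 23.4 to 37.1 CPM (median 27.3), a log2 fold change of 0.80 ± 0.15 (edgeR adjusted p = 6.4e-06), with ranges that overlapped at their ends.

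**Figure D4:**
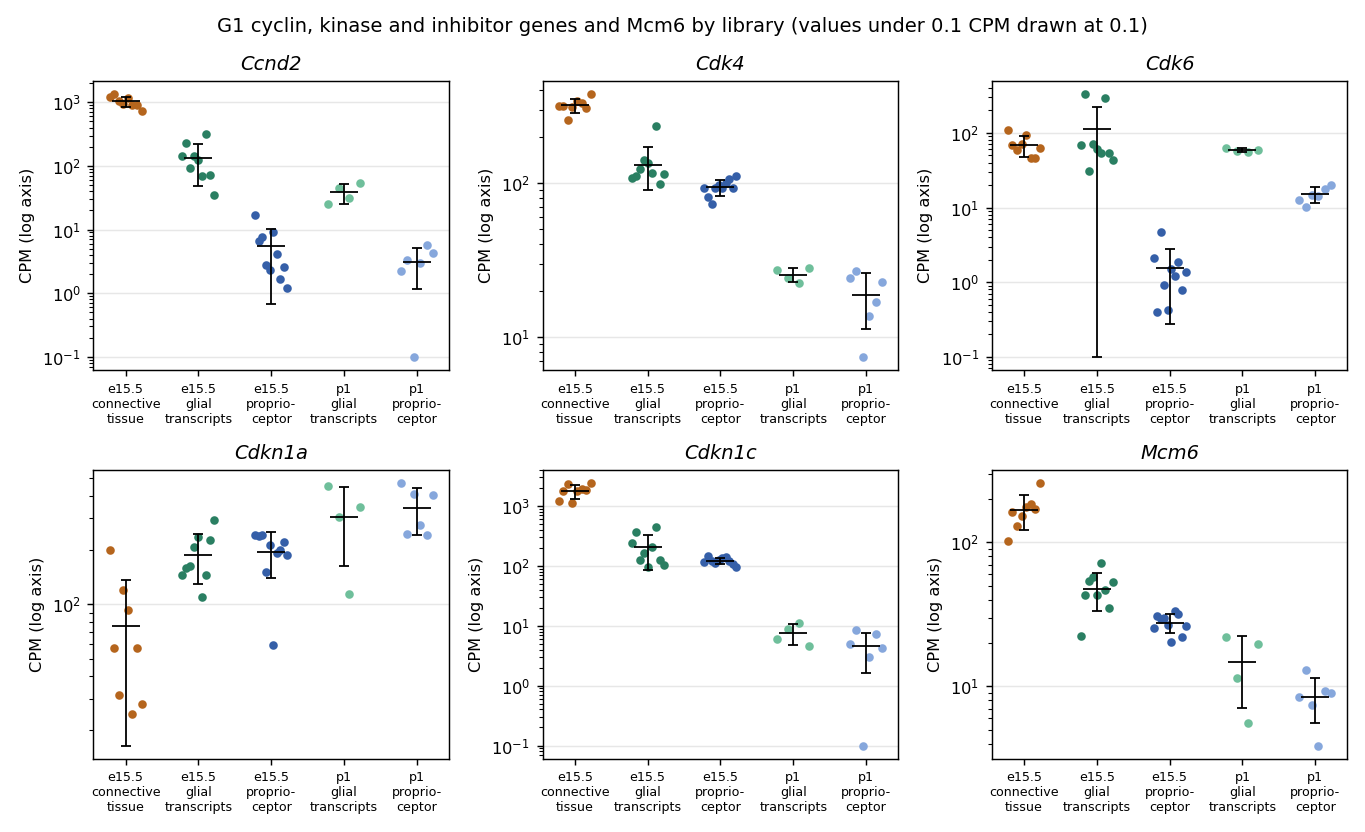
CPM of *Ccnd2*, *Cdk4*, *Cdk6*, *Cdkn1a*, *Cdkn1c* and *Mcm6* on log axes, with 1 point per library by class and age and the mean ± SD as black bars (values and bar ends below 0.1 CPM are drawn at 0.1). *Cdkn1c* falls from 96.3 to 148 CPM in e15.5 proprioceptors to 0 to 8.36 CPM at p1, while *Cdk6* rises from 0.394 to 4.74 CPM to 10.2 to 20.2 CPM.

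The wells with glial transcripts at e15.5 took a middle place. Their rule set no *Etv1* limit, so the class was not restricted to proprioceptors. Together *Pvalb*, *Runx3*, *Etv1* and *Ntrk3* stood at 1416 to 4259 CPM in glial-transcript and 4030 to 4889 CPM in proprioceptor sums. Whether the 2 classes held the same kinds of neuron was not tested. Of the 42 members 34 were higher than in proprioceptor wells and none was lower (0 by DESeq2 too, and none at an unadjusted p under 0.05), where 11.6% of all genes were higher and 9.99% lower, and the members' median log2 fold change was 2.10 against -0.08 over all genes. Without TMM scaling 77.7% of the calls over all genes were higher, against 53.7% with it. The proprioceptor sums are the same ones that the connective tissue wells were compared with. All 18 mitosis genes were among the 34, with 8 of 9 licensing, 2 of 4 synthesis and 5 of 8 G1 genes. The libraries were far apart for mitosis, and each sum held only 5 to 18 wells. *Mki67* was at 0 CPM in library 2, 1.85 in library 1, 13.4 in library 3, 15.3 in library 9, 30.2 in library 5, 39.3 in library 10, 55.5 in library 7, 178 in library 4 and 291 in library 8. The same 2 libraries led *Top2a*, at 303 and 356 CPM, against 4.28 to 68.7 CPM in the other 7. *Cdk1* ran from 5.55 to 89.1 CPM (median 8.57) and *Nusap1* from 0 to 43.7 CPM (median 4.28), with log2 fold changes over proprioceptors of 3.70 ± 0.55 and 4.66 ± 0.78. Counts without library 4, which held 7 glial-transcript wells, fell to 28 members, and only 2 libraries held 10 or more such wells. With those alone 9 members were called.

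Of the G1 genes *Cdk6* and *Ccnd2* differed most in the glial-transcript wells. *Cdk6* stood at 30.6 to 330 CPM (median 61.3), above the highest proprioceptor library (4.74 CPM) in all 9 libraries, with a log2 fold change of 5.94 ± 0.42 (edgeR adjusted p = 2.2e-14). *Ccnd2* stood at 34.4 to 314 CPM (median 122), again above every proprioceptor library, with a log2 fold change of 4.58 ± 0.36 (edgeR adjusted p = 4.3e-13). *Cdk2* and *Ccnd1* differed by 4.54 ± 0.63 and 2.91 ± 0.57, and *Ccnd3* by 1.69 ± 0.28, with overlapping libraries. *Mcm3*, at 1.95 to 32.8 CPM, differed by 2.93 ± 0.43 and *Rrm2*, at 3.70 to 42.2 CPM, by 2.04 ± 0.34. The 8 members that did not pass were *Gmnn*, *Pcna*, *Rrm1*, *Ccne1*, *Ccne2*, *Cdk4*, *Cdkn1a* and *Cdkn1b*, with log2 fold changes of -0.28 to 0.60. *Cdkn1c* (0.55 ± 0.20) and *Cdc6* (1.85 ± 0.76) passed narrowly, at edgeR adjusted p = 0.049 and 0.047, and lost the call in 13 of 30 and 14 of 28 alternatives.

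Set against the glial-transcript wells directly, connective tissue wells were higher in 40 members and lower in 1, where 35.2% of all genes were higher and 35.4% lower. The median log2 fold change of the members was 2.49, against 0.00 over all genes, and without TMM scaling the median over all genes moved to -0.18. *Ccnd3*, at 259 to 450 CPM against 5.89 to 60.0 CPM, differed most, by 4.16 ± 0.24 on the log2 scale (edgeR adjusted p = 6.0e-18). *Cdkn1c* differed by 3.40 ± 0.22, and the ranges of both genes were apart. *Cdkn1a* was again the lower one, at 24.5 to 199 CPM against 110 to 294 CPM (log2 fold change -1.15 ± 0.31, edgeR adjusted p = 0.0014). *Cdk6* was the member that did not pass, at 69.3 ± 22.1 CPM (SD, n = 8) in connective tissue and 111 ± 114 CPM (SD, n = 9) with glial transcripts (log2 fold change -0.23 ± 0.32, edgeR adjusted p = 0.53).

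Single wells showed how the sums arose. Each well was thinned at random to 10000 UMIs, so that depth could not set the counts, and UMIs of the 18 mitosis genes and of the 13 replication and synthesis genes were added up. Of 342 connective tissue wells 67 (19.6%, exact 95% interval 15.5 to 24.2%) held at least 20 mitosis UMIs, up to 130 in a well, while 92 (26.9%, 22.3 to 31.9%) held none. Wells with many mitosis UMIs were found in all 8 libraries with connective tissue sums, at 12.9 to 30.4% of wells. At least 10 replication UMIs were in 124 wells (36.3%, 31.2 to 41.6%). Of these, 65 had fewer than 5 mitosis UMIs and 37 had at least 20, and 30 more wells had at least 20 mitosis UMIs with fewer replication UMIs. Intervals cover counting error only, since wells of a library are not independent.

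In proprioceptor wells such counts were almost absent. At e15.5 1 of 280 wells (0.357%, 0.00904 to 1.97%) held at least 20 mitosis UMIs, and none held 10 replication UMIs, which allows a share of up to 1.07%. At p1 none of 303 wells reached either limit, which allows up to 0.990%, and the highest count was 17 mitosis UMIs. The e15.5 well had 21 mitosis UMIs, came from library 8, held 200968 UMIs before thinning, and had neuron genes at 4628 CPM and the 3 glial genes at 89.6 CPM. Library 8 was also the one with the highest *Mki67* level among proprioceptor sums, at 17.3 CPM. With glial transcripts, 8 of 83 wells at e15.5 (9.64%, 4.25 to 18.1%) held at least 20 mitosis UMIs, up to 173, and came from 6 libraries. Library 4 held 2 of them among its 7 wells, with 22 and 173 mitosis UMIs. Library 8 held 2 among its 8 wells, with 32 and 49. These were the libraries with the highest *Mki67* and *Top2a* levels of the class. In the 8 wells the neuron genes were at 134 to 4668 CPM (175 in the well with 173 mitosis UMIs) and the 3 glial genes at 215 to 1342 CPM. The 6 connective tissue genes were at 10.9 to 1715 CPM in them (median 212, against 41.4 in the 72 wells of the class with fewer than 5 mitosis UMIs), the highest value being in the well with 173 mitosis UMIs. *Col1a1* and *Col1a2* together were at 119.7 to 1581 CPM. The part of connective tissue RNA in these counts was not tested. At p1 none of 50 glial-transcript wells held 20 mitosis UMIs, which allows up to 6%, and the highest count was 14. At least 5 mitosis UMIs were in 5 of these 50 wells (10%, 3.33 to 21.8%) and in 11 of 83 at e15.5 (13.3%, 6.81 to 22.5%). Among proprioceptor wells they were in 2 of 280 at e15.5 (0.714%, 0.0866 to 2.56%) and 5 of 303 at p1 (1.65%, 0.538 to 3.81%). Those of p1 came from libraries 4 and 5.

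**Figure D5:**
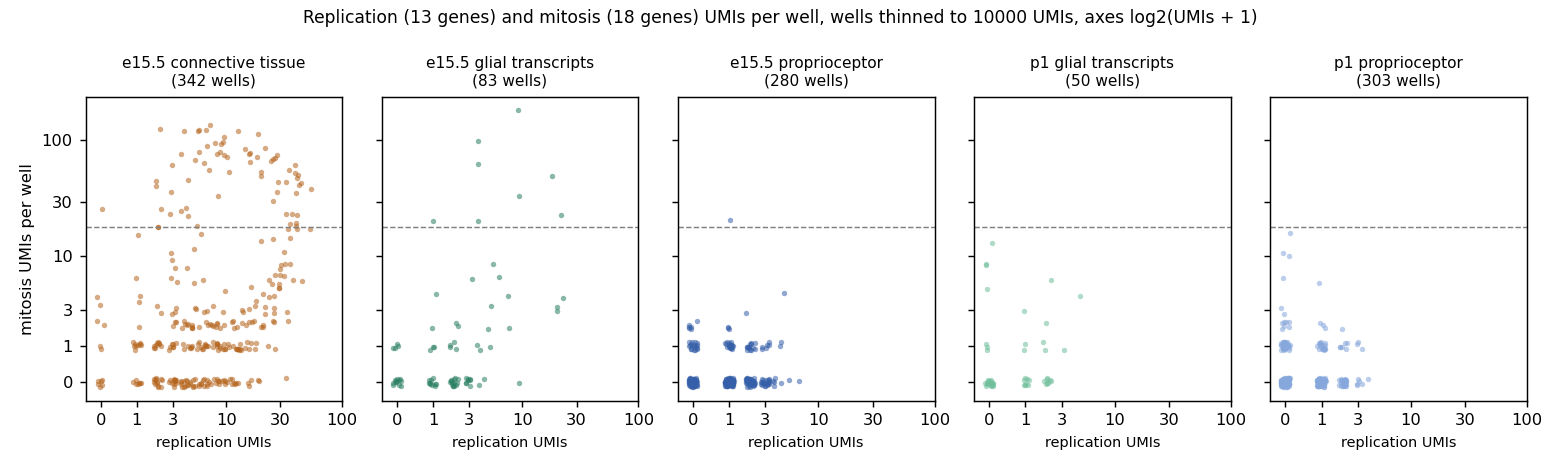
UMIs of 13 replication and synthesis genes (horizontal) and of 18 mitosis genes (vertical) in each well thinned to 10000 UMIs, by class and age, on log2(UMIs + 1) axes with a small random shift and a dashed line at 20 mitosis UMIs. Of 342 connective tissue wells 67 lie above the line, against 8 of 83 with glial transcripts and 1 of 280 proprioceptor wells at e15.5, and none at p1.

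The share of wells with a UMI separated genes that nearly all connective tissue wells carried from genes that some carried. After thinning, *Ccnd2* was found in 95.9% of connective tissue wells, *Cdk4* in 96.2% and *Cdkn1c* in 97.7%, whereas *Mki67* was found in 34.2% and *Top2a* in 39.2%. In e15.5 proprioceptor wells, which serve as the background, *Ccnd2* was found in 5.36%, *Mki67* in 0.357% and *Top2a* in 5.71%. Without thinning *Ccnd2*, *Mki67* and *Top2a* were found in 97.7%, 42.7% and 54.7% of connective tissue wells and in 24.3%, 7.5% and 28.9% of proprioceptor wells, at median depths of 28498 and 117849 UMIs per well. *Cdk4* and *Cdkn1c* were different, with 66.1% and 62.9% of thinned proprioceptor wells holding a UMI, and *Cdkn1a* was found in 72.5% of these against 30.1% of connective tissue wells. Without thinning *Cdk4*, *Cdkn1c* and *Cdkn1a* were found in 98.2%, 96.1% and 95.7% of proprioceptor and in 99.1%, 97.7% and 43.9% of connective tissue wells. Among connective tissue wells the median thinned *Ccnd2* count was 5 UMIs where mitosis UMIs were at least 20 and 11 where there were none, and for *Cdkn1c* it was 14 and 17. Spearman correlation with mitosis UMIs over these wells was -0.26 for *Ccnd2* and -0.08 for *Cdkn1c*. Within libraries 1 to 8 it was -0.64 to -0.04 for *Ccnd2*, and for *Cdkn1c* its sign differed between libraries (-0.41 to 0.26).

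At p1 the question was whether glial-transcript wells still differed from proprioceptor wells. Of the 42 members 5 were higher and none was lower (0 by DESeq2 too, and none at an unadjusted p under 0.05), where 2.59% of all genes were higher and 0.05% lower, with a median log2 fold change of 0.47 against -0.02 over all genes. None of the 18 mitosis genes passed (edgeR), none had an unadjusted p under 0.05, and DESeq2 called 0 as well. Without TMM scaling the median over all genes was 0.11. *Mki67* stood at 0.538, 3.81, 0 and 14.5 CPM in libraries 1, 4, 5 and 6 with glial transcripts, and at 0 to 7.11 CPM in proprioceptor libraries. *Ccnd2* had the lowest adjusted p of the 5, at 24.7, 45.7, 30.7 and 53.5 CPM in those libraries against 0 to 5.79 CPM, a log2 fold change of 3.32 ± 0.52 (edgeR adjusted p = 2.9e-05). *Cdk6* was at 62.9, 57.2, 55.9 and 59.3 CPM against 10.2 to 20.2 CPM, a log2 fold change of 1.88 ± 0.43 (edgeR adjusted p = 0.0057). The libraries of both genes were apart. *Ccnd1* was at 25.8, 39.4, 39.1 and 38.4 CPM against 0 to 13.7 CPM (log2 fold change 2.09 ± 0.60, edgeR adjusted p = 0.047). *Mcm3* had 7, 1, 1 and 7 UMIs in the 4 sums (2.90 ± 0.76, edgeR adjusted p = 0.011) and *Cdk2* had 3, 0, 1 and 11 (3.37 ± 1.05, edgeR adjusted p = 0.049). None of the 5 calls held in every alternative that tested the member. The calls of *Ccnd1* and *Cdk2* were lost in 16 of 30 and 19 of 29 alternatives. Without library 1 *Ccnd2* alone was called, and with library 6 left out 2 members were.

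The difference between glial-transcript and proprioceptor wells was compared between the ages by the interaction term of the same fit. *Cdk6* was the 1 member of 42 that passed, where 0.872% of all genes did. Its log2 difference was 5.94 ± 0.42 at e15.5 and 1.88 ± 0.43 at p1, and the difference between them 4.06 ± 0.64 (edgeR adjusted p = 0.00048). The glial-transcript levels of *Cdk6* overlapped between the ages (30.6 to 330 CPM at e15.5 and 55.9 to 62.9 CPM at p1), while the proprioceptor levels did not (0.394 to 4.74 CPM and 10.2 to 20.2 CPM). For the 18 mitosis genes the differences between the ages were all above 0, at 0.87 to 4.31 on the log2 scale, with 12 at an unadjusted p under 0.05 and none past the adjusted threshold (edgeR). The share of all genes at that unadjusted p is not given, and the 18 genes were read in the same wells and are not independent. DESeq2 called 5 members, 4 of them mitosis genes, where it called 235 of 33042 genes higher and 16 lower.

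Between p1 and e15.5 proprioceptor wells 4 members were higher and 5 lower, where 26.8% of all genes were higher and 27.9% lower. Their median log2 fold change was 0.10, against -0.03 over all genes. Without TMM scaling the median over all genes was -0.25 and 33.5% of calls were higher, against 48.9% with it. No mitosis gene passed (edgeR), 1 of 18 had an unadjusted p under 0.05, DESeq2 called 1 (*Bub1*, higher), and their summed level was 19.7 to 94.2 CPM at e15.5 and 23.7 to 72.9 CPM at p1. The 9 called members were 3 G1 genes, 2 inhibitors and 4 replication or synthesis genes. Of these calls 5 held in every alternative that tested the member, and 4 were lost in at least 1.

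*Cdkn1c* fell most, from 96.3 to 148 CPM (median 119) at e15.5 to 0 to 8.36 CPM (median 4.64) at p1, a log2 fold change of -4.15 ± 0.31 (edgeR adjusted p = 4.3e-14). *Cdkn1a* rose, from 59.4 to 244 CPM (median 207) to 243 to 471 CPM (median 341), a log2 fold change of 1.01 ± 0.30 (edgeR adjusted p = 0.0048). The p57 gene thus gave sets of libraries with no overlap, while those of the p21 gene overlapped between 243 and 244 CPM. *Cdkn1b* was at 23.4 to 37.1 and 0 to 22 CPM (log2 fold change -0.36 ± 0.17, edgeR adjusted p = 0.061), with no overlap in CPM. Its lowest value came from p1 library 3, with no UMI in a sum of 134145.

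The 2 partners of D cyclins moved in opposite directions. *Cdk4* fell from 73.0 to 112 CPM (median 93.4) to 7.45 to 26.8 CPM (median 19.9), a log2 fold change of -1.95 ± 0.14 (edgeR adjusted p = 3.3e-14). *Cdk6* rose from 0.394 to 4.74 CPM (median 1.29) to 10.2 to 20.2 CPM (median 14.6), a log2 fold change of 3.66 ± 0.47 (edgeR adjusted p = 2.0e-08). Neither pair of ranges overlapped. The 3 glial genes in proprioceptor sums stood at 0.949 to 5.22 CPM at e15.5 and at 3.10 to 11.2 CPM at p1, and *Cdk6* stood at 55.9 to 62.9 CPM in p1 wells with glial transcripts. Each of the 3 was at 0 in at least 1 p1 proprioceptor sum and at most at 7.45 CPM in any. The part of glial RNA in the *Cdk6* values was not tested. *Ccnd1* was higher as well, at 0 to 13.7 CPM against 0 to 8.44 CPM (1.89 ± 0.57, edgeR adjusted p = 0.0049), with overlapping ranges. *Ccnd2*, *Ccnd3*, *Ccne1*, *Ccne2* and *Cdk2* did not pass, with log2 fold changes of -0.24 to 0.53.

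Of the replication genes *Mcm6* fell, from 20.3 to 33.4 CPM to 3.88 to 12.9 CPM (-1.38 ± 0.21, edgeR adjusted p = 5.0e-07). *Pcna*, at 43.9 to 66.5 and 21.1 to 43.1 CPM, and *Mcm7* had log2 fold changes of -0.57 ± 0.23 and -0.87 ± 0.36 (edgeR adjusted p = 0.031 and 0.038) and lost the call in 8 and 10 of 30 alternatives. *Cdt1* was higher, by 0.96 ± 0.32 (edgeR adjusted p = 0.0093), with means of 2.98 ± 1.76 (SD, n = 6) and 2.04 ± 0.72 CPM (SD, n = 10). The remaining 9 of 13 did not pass.

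Other cell cycle genes that are not members were read from 4 lists. In connective tissue against e15.5 proprioceptor wells all 16 other replication genes and 24 of 25 other mitosis genes were higher (38.8% of all genes), with medians of 3.05 and 4.19 on the log2 scale. The thymidine kinase *Tk1* (7.45 ± 0.54) and the chromosome motor *Kif4* (6.70 ± 0.57) led them. Of 11 E2F and pocket protein genes 9 were higher and 1 lower. The repressor *E2f8* (6.48 ± 0.51) led the higher ones, while the lower one, named after its value was seen, was *Rb1*, the retinoblastoma gene (-1.69 ± 0.18). Of the 3 INK4 inhibitors of Cdk4 and Cdk6 tested, *Cdkn2c* was higher (5.28 ± 0.59), *Cdkn2d* lower (-1.56 ± 0.13, at 36.8 ± 8.76 CPM, SD, n = 8, against 112 ± 15.5 CPM, SD, n = 10) and *Cdkn2b* lower (-1.10 ± 0.47, not called by DESeq2). In glial-transcript wells 6 of 16, 20 of 25, 5 of 11 and 1 of 3 genes of the lists were higher at e15.5 (11.6% of all genes), and *E2f7* was lower (-0.93 ± 0.29). At p1 none passed (edgeR), 3, 0, 1 and 0 had an unadjusted p under 0.05, and DESeq2 called 0 of each list. Between p1 and e15.5 proprioceptors 3, 2, 1 and 1 genes of the 4 lists were higher and 1, 2, 4 and 0 lower, where 26.8% and 27.9% of all genes were. *E2f1* was higher (2.24 ± 0.29) and *E2f4* lower (-1.42 ± 0.20).

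Of the members 14 overlap an exon of a gene on the other strand, among them *Mcm7* (*Cops6*, *Ap4m1*), *Ccna2* (*Exosc9*) and *Cdk4* (*Tspan31*), and 7 have an annotated pseudogene of at least 95% identity over at least 80% of its length, so their counts carry that uncertainty. The overlap partners *Cops6* and *Exosc9* were higher in proprioceptor than in connective tissue wells at e15.5 (136 against 88.2 CPM, and 59.1 against 25.2 CPM). Lower in proprioceptor wells were *Tspan31* (25.7 against 51.6 CPM), *Ap4m1* (20.3 against 36.5 CPM) and *Oip5*, which overlaps *Nusap1* (0.762 against 12.9 CPM). The part of such overlaps in the members' counts was not tested.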

How the data were processed

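The deposited values were UMI counts per gene and well, which the authors made with scruff from CEL-Seq2 reads, with mm10 and GRCm38 named in the submitters' processing notes, and deposited for all wells with no filter. No source used here states whether the counting used strand. Gene names came from GENCODE M21 and promoters from RefSeq (GRCm38.p6). The same 96 well names recur in all 16 libraries through the plate layout, and no 2 wells held identical counts. No doublet caller was run, and wells meeting more than 1 class definition were left out. The members, the lists of other genes and the marker lists were chosen with earlier results of these data known. One gene of the glial marker list is not reported here and was left out of that list's sums.

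UMIs were summed per library and class (at least 5 wells of at least 10000 UMIs) and 13992 genes kept by filterByExpr were tested in 1 edgeR 4.0.16 quasi-likelihood fit over 5 class and age groups (R 4.3.3, TMM scaling, Benjamini-Hochberg adjustment, threshold 0.05). SE values were derived from the F statistic. Libraries were the replicates, with total UMIs of 3701900 to 9299431 at e15.5 and 386517 to 8814472 at p1. Levels are CPM of a class's UMIs in a library. Shares of wells have exact Clopper-Pearson intervals of 95%, and a count of 0 was given the limit of 3 wells. That limit is lower than the upper end of the exact interval. The exact upper ends are 1.31% for 0 of 280 wells, 1.21% for 0 of 303 and 7.11% for 0 of 50. Wells were thinned to 10000 UMIs with Python 3.11.15, NumPy 2.4.6 and pandas 2.3.3. On simulated data with 200 genes raised 4-fold, fits of only the 2 groups compared recovered 88 to 94%, with 1.68 to 4.32% of calls false. The simulated sums were drawn independently and no other gene differed between the groups. These rates therefore need not hold for the fit over 5 groups. Values in every library, as lowest, median and highest, were given for the 2 members per role with the largest change in connective tissue against proprioceptor wells and for G1 and inhibitor genes called in any comparison, and up to 3 genes with the largest change among those called were named in each other list.

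Sums of different classes from the same library deviated together (median correlation 0.174 over 28 pairs, against -0.033 between libraries). The alternatives, 31 in all, were DESeq2 1.42.0, other scaling, filters, class limits, depths and wells per sum, a library block, and leaving out each of 16 libraries. One alternative, counting wells with collagen and glial transcripts as glial, was chosen after seeing the data.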

Additional observations from a re-analysis of the deposited data

Results flagged for a closer look

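Dixon's gap test was run in 124 groups of libraries, for members with at least 10 UMIs per library on average. In 24 of them 1 library stood apart from the rest. The limits of the test are set for about 1 in 20 groups of normally distributed values. The sums held 134145 to 7348896 UMIs and the genes share libraries, so that rate need not hold here. The share over all genes is not given. Values are CPM. In wells with glial transcripts at e15.5, library 4 was highest for *Ccnb1* (103, next 23.4), *Ccnd1* (111, next 38.6) and *Cenpf* (120, next 42.2), library 8 for *Cdk4* (234, next 140), *Mcm7* (60.9, next 29.99) and *Pcna* (188, next 106), and library 2 for *Ccnd3* (60.0, next 32.8). Library 4 held 7 such wells, including the well with 173 mitosis UMIs after thinning, and library 8 held 8. In connective tissue wells *Ccnb1* was highest in library 1 (147), *Rrm2* in library 5 (131) and *Mcm7* lowest in library 3 (32.6). In e15.5 proprioceptor wells *Mki67* was highest in library 8 (17.3, next 2.26), *Ccnd2* in library 1 (16.8), *Ccne2* in library 2 (15.4) and *Rrm2* in library 3 (8.54), and *Cdkn1a* was lowest in library 6 (59.4, next 151).

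At p1, proprioceptor library 3, with 134145 UMIs in its sum, stood apart in 6 genes. *Ccne2* and *Cdkn1b* were at 0 there, *Rrm1* (7.45) was lowest, and *Ccnd3* (29.8), *Tyms* (14.9) and *Ube2c* (7.45) were highest, on 0 to 4 UMIs each. With glial transcripts *Ccnd1* was lowest in library 1 (25.8, next 38.4), *Gmnn* highest in library 1 (18.3) and *Mcm4* lowest in library 6 (6.4).

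The glial-transcript minus proprioceptor difference of *Cdk6* was larger at e15.5 than at p1 by 4.06 on the log2 scale, by the interaction test. Some of the wells left out of the comparisons held mitosis transcripts above the highest proprioceptor library. The 18 mitosis genes summed to 854 CPM over the 51 e15.5 wells that met more than 1 definition, above the highest proprioceptor library of that age (94.2 CPM). At p1 the sum was 105 CPM over 8 such wells and 76.1 CPM over 8 wells that met no definition, where the highest proprioceptor library held 72.9 CPM. These p1 sums rest on 33 and 35 UMIs. The 115 e15.5 wells that met no definition held 35.8 CPM (20.4 to 50.8 CPM over 7 libraries), within the proprioceptor range. After thinning, no well among them held more than 3 mitosis UMIs.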

How the results depend on the processing

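Of 132 calls of a member in a comparison 96 held in every alternative that tested the member, among them all 42 for connective tissue against proprioceptor wells. The count of members higher with glial transcripts at e15.5 (34) became 8 with only the groups compared, where fewer genes were tested. Most of the 34 were filtered out there before testing, and those that were tested (*Mcm6*, *Top2a*, *Ccnd2*, *Ccnd3*, *Cdk6* and *Cdkn1c*) kept their calls. The count became 9 with sums of at least 10 wells, which left 2 glial-transcript libraries. Of the calls lost with those sums 15 held in the other alternatives, and *Ccnb2* (-0.031) and *Cdkn1c* (-0.049) changed sign. Members lower in connective tissue against glial-transcript wells became 2 with wells thinned to 10000 UMIs. At p1 the 5 higher members became 3 with only the groups compared, 3 with wells of at least 20000 UMIs, 3 with wells of collagen and glial transcripts counted as glial, 2 with class limits doubled and 0 with thinned wells. For p1 against e15.5 proprioceptors the 4 higher became 8 with class limits halved, and the 5 lower became 3 with wells of at least 20000 UMIs, with quantile filters, with thinned wells and with DESeq2. The interaction count of 1 became 2 with wells of at least 5000 UMIs, with quantile filters and with halved limits, 4 with thinned wells, 5 with DESeq2 and 5 with wells of collagen and glial transcripts counted as glial. The cause was not tested except where the setting itself gives it.

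Leaving out each library gave 41 higher and 1 lower for connective tissue against proprioceptor wells, 28 to 36 for glial-transcript wells, 40 and 1 for connective tissue against glial-transcript wells, 1 to 5 at p1 (1 without library 1, 2 without library 6), 4 to 6 higher and 3 to 6 lower between ages (3 without p1 library 6), and 1 to 2 for the interaction. With the library as a replicate block the counts were 41 and 1, 36, 40 and 1, 5 and 1, and *Cdk2* at p1 lost its call. Libraries of different ages share only numbers (median correlation -0.078 over 9 pairs), and with the number as a block, which leaves out e15.5 libraries 7 to 10, 2 members were higher and 5 lower between ages. Depth limited p1 library 3, and the number of wells limited the p1 glial-transcript class, in which 0 of 50 wells with many mitosis UMIs allows a share of up to 6%.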
